A study of Mus musculus with 8 samples.

Results

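The metallothionein and Nrf2 antioxidant genes described here are 10 genes listed by name. The list itself takes no measured value as a criterion, but it was drawn up with earlier results of these data known. They are the metallothioneins Mt1, Mt2 and Mt3 and the Nrf2 targets Hmox1, Nqo1, Gclc, Gclm, Txnrd1, Srxn1 and Slc7a11. They are 10 of the 57010 gene identifiers counted, and all 10 were among the 20457 genes that passed the filter on low counts. Whole-retina poly(A) RNA was sequenced from mice of 4 groups, for which no treatment is labelled, with 2 libraries each: wild type at postnatal day 15 (WT P15), and mice homozygous for the rd10 mutation at P15, P18 and P21. The rd10 mutation lies in Pde6b, a subunit of the rod phosphodiesterase, and rods begin to die at about the ages sampled. Every library came from 1 whole retina, the 2 libraries of a group are described as biological replicates, and the methods name wild-type littermates as controls.

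Metallothioneins are small, cysteine-rich proteins that bind zinc and copper and take up oxidants. Transcription of Mt1 and Mt2 is switched on by the zinc-sensing factor MTF1 at metal response elements, and also by glucocorticoids and by cytokines that act through STAT3. Mt3 is the family member of brain and retina and responds little to metals. The second system is run by Nrf2, the product of Nfe2l2. The adaptor Keap1 marks Nrf2 for degradation, and oxidants or electrophiles release it. Nrf2 then binds antioxidant response elements together with small Maf proteins and raises a set of detoxifying enzymes, while Bach1 holds some of the same genes down, Hmox1 above all. In retina, both systems are known for their response to light damage and photoreceptor loss.

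No wild-type library of P18 or P21 was analysed here, so that at these ages genotype and age cannot be told apart. Total counts lay between 28076947 and 33724562 per library. All 8 rod markers examined were detected in every library, with a summed level between 17724 and 46335 CPM (read counts scaled to the library). Y-linked genes (4 of them, summed) had 5530 to 7193 counts in 4 libraries, the pair of rd10 P15 and replicate 1 at P18 and at P21, but only 3 to 19 in the remaining 4. WT P15 and rd10 P15 were thus of different sex, and rd10 P18 and rd10 P21 were each mixed. The 2 libraries of rd10 P18 differed most from each other, by a chi-square per gene of 103 where the other groups had 24.5 to 39.4. In whole tissue, more cells of a type and more RNA per cell cannot be told apart.

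Shown here are the sequences before the starts of the 3 metallothionein genes, which lie side by side. Whether these sequences bear on the size of change was not tested. They stand 5′ to 3′ from the RefSeq table of GRCm38.p6, on the plus strand, and are the 250 bases before each RefSeq start. Capitals mark the core of the metal response element, searched as TGCACNC or TGCGCNC on both strands.
Mt1, chr8:94178839-94179088: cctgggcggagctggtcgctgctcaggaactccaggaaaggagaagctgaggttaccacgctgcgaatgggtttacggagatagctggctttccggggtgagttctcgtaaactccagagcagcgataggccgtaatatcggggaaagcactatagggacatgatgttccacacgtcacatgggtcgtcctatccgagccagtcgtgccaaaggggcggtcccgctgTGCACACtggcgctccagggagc
Mt2, chr8:94172368-94172617: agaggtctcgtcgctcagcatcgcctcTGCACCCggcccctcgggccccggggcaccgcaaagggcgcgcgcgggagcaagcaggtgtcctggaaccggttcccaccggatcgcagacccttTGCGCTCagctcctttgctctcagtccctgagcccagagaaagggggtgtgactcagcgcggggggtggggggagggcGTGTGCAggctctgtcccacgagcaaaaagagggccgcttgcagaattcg
Mt3, chr8:94152357-94152606: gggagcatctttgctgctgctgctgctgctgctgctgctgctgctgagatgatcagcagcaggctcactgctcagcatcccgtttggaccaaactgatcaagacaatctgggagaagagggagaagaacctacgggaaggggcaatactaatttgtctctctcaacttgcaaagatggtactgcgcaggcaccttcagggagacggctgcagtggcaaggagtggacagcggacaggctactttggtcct
The Mt2 window held 3 such cores, the Mt1 window 1 and the Mt3 window 0. Of 32817 windows of the same length before RefSeq starts, 21.4% held at least 1 core and 1.26% at least 3.

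These counts depended on which start was used. GENCODE M21 places starts of Mt1 at 94179082, 94179211 and 94179241, and the 250 bases before the 2 later ones held 5 metal response cores each. Before the GENCODE start of Mt2 at 94172664 there were 3 cores, and before its later start at 94172860 there were 4. Mt3 had 0 cores before its start at 94152607 and 3 before the start at 94152746. A match to these letters is a description of the sequence and not a site of binding.

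The core of the antioxidant response element was searched as TGACNNNGC on both strands, and 10.2% of the 32817 windows held at least 1. RefSeq windows were matched for 8 of the 10 genes. Mt2 held the core as TGACTCAGC, which began 79 bases before the start. Gclm held GCACCGTCA, the reverse complement of a core, 134 bases before the start. Txnrd1 held GCTTTGTCA, likewise on the other strand, 92 bases before the start at chr10:82859206, and none before its other 2 starts. The windows of Mt1, Mt3, Nqo1, Srxn1 and Slc7a11 held none, while the windows before the 2 later GENCODE starts of Mt1 held 1 each. Other forms of the core and bases further upstream were not searched. The Srxn1 window, for example, holds TGAGTCAGC, which the searched letters leave out. An empty window therefore does not mean that the gene lacks an element.

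Mt1 and Mt2 rose in rd10 P18 retina and were still raised at P21, and their levels in rd10 P15 lay below those of WT P15. Levels are given as CPM after TMM normalization, which scales the reads of a gene to the reads of its library. A gene counted as called when its log2 fold change was over 1 in size with an adjusted p under 0.05 in edgeR's quasi-likelihood test with Benjamini-Hochberg adjustment over all 20457 genes. Of these genes, 303 or 1.48% were called between rd10 P18 and WT P15, and 77.6% of the 303 were higher at P18. For rd10 P21 against WT P15 the share was 0.386%, for rd10 P15 against WT P15 0.230%, for rd10 P18 against rd10 P15 0.591% and for rd10 P21 against rd10 P18 0.0196%.

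These shares over all genes rested on single libraries. At P18 against WT P15 leaving out replicate 1 of the WT libraries left 39 genes called (0.177%), and leaving out replicate 2 left 84 (0.383%). It was 149 without either rd10 P15 library in turn. Without rd10 P18 replicate 2 it was 1250 (5.70%), and only 38.6% of these were higher at P18. At P21 against WT P15 the count of 79 fell to 4 when WT P15 replicate 1 was left out and reached 210 when rd10 P18 replicate 1 was. Between P21 and P18, 4 genes were called with all libraries and 963 (4.39%) without rd10 P18 replicate 2. DESeq2 called 957 genes (4.74%) at P18 against WT P15.

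Of the 10 genes, 3 were called at P18 against WT P15 (Mt1, Mt2 and Hmox1), 2 at P21 against WT P15 (Mt1 and Mt2) and 3 at P18 against rd10 P15 (Mt1, Mt2 and Hmox1), all of them higher at the later age. At P15 against WT P15, edgeR called 0 of the 10, with 2 at an unadjusted p under 0.05 (12.3% of all genes). DESeq2 called 1 there, beside 2.13% of all genes. Between P21 and P18, edgeR called 0 of the 10, with 3 at an unadjusted p under 0.05 (10.8% of all genes). DESeq2 called 2 of the 10 there, beside 0.6% of all genes. The same WT P15 libraries serve as control at every age, so that these comparisons are not independent of each other. With 2 libraries on each side, the smallest p of a two-sided exact permutation test is 0.333, so that single genes were judged by the fit over all genes.

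**Figure D1:**
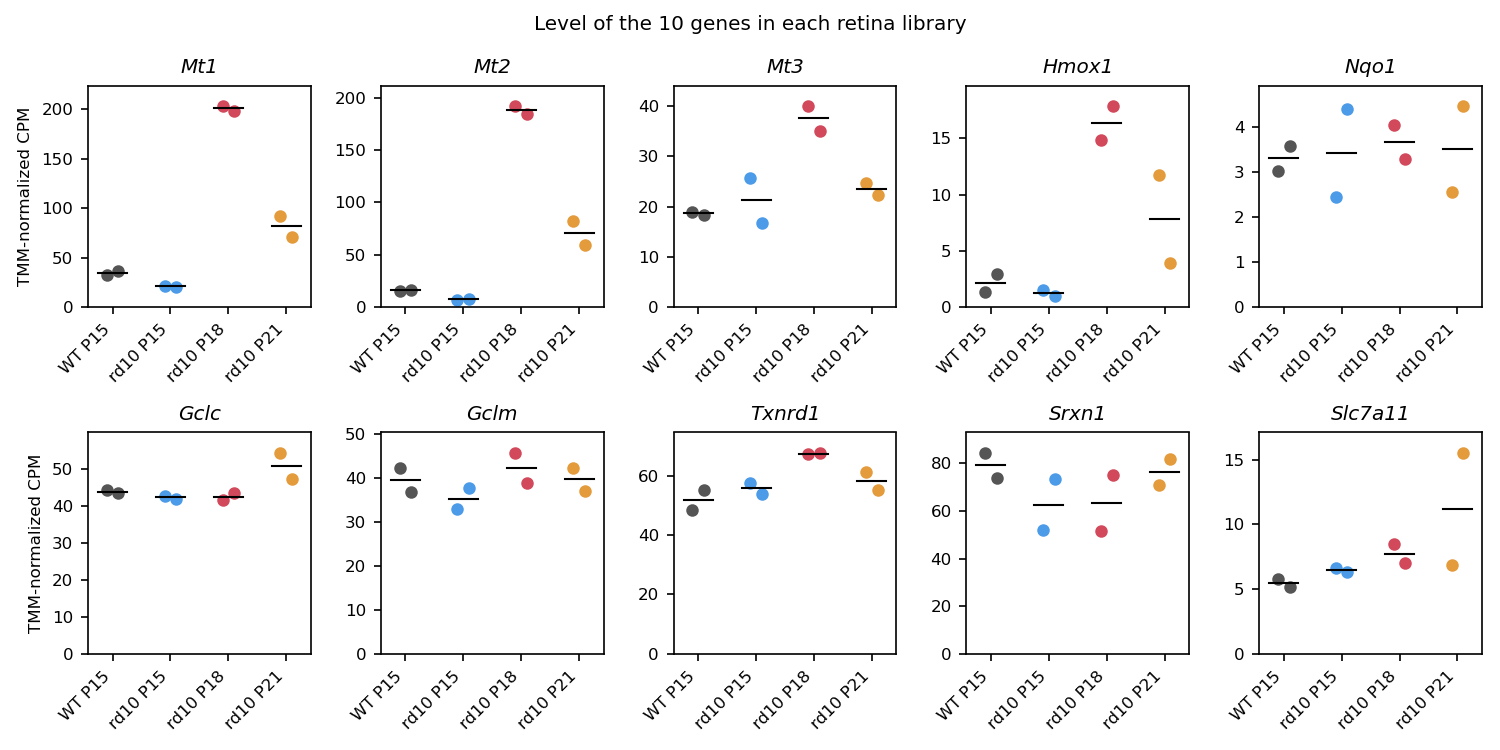
Level of each of the 10 genes in the 8 retina libraries. The vertical axis is TMM-normalized CPM from 0, each point is 1 library and the bar is the mean of the 2 libraries of a group. Mt1, Mt2 and Hmox1 peaked at rd10 P18, with both P18 libraries above every other library, whereas the points of Nqo1 overlapped among all 4 groups.

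Mt1 (ENSMUSG00000031765, chr8:94179082-94180327, GRCm38, plus strand) had 32.8 and 36.7 CPM in the WT P15 libraries, while those of rd10 P15 held 21.7 and 20.5. It reached 203 and 199 CPM at P18 and 92.0 and 71.2 at P21. The P18 libraries stood apart from all others, and the P21 libraries lay between them and WT P15 without overlap. The log2 fold change against WT P15 was 2.53 at P18 (SE, its standard error, 0.16, adjusted p = 0.000745), a 5.77-fold difference. At P21 it was 1.23 (SE 0.16, adjusted p = 0.0332).

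The fold change of Mt1 at P18 kept its call under all 15 alternatives to this fit, with values between 2.43 and 2.65. The call at P21 was less stable. It was lost when 1 library was left out, be it replicate 1 (adjusted p = 0.201) or 2 (0.0930) of WT P15, replicate 1 (0.0684) or 2 (0.0707) of rd10 P15, or replicate 1 of rd10 P21 (0.132). With a term for the level of the Y-linked genes, the log2 fold change of Mt1 at P21 was 1.12 (adjusted p = 0.0539).

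Mt2 (ENSMUSG00000031762, chr8:94172664-94173568, plus strand) had 14.97 and 16.8 CPM in WT P15, and its lowest levels were 6.87 and 8.21 CPM in rd10 P15. At P18 the libraries held 192 and 184 CPM, and at P21 82.2 and 59.7 CPM. Again no library of rd10 P18 or P21 overlapped with WT P15. Against WT P15, this was a log2 fold change of 3.56 at P18 (SE 0.20, adjusted p = 0.000477), an 11.8-fold difference. At P21 it was 2.16 (SE 0.19, adjusted p = 0.0134), a 4.46-fold difference. The P18 call of Mt2 was kept under all 15 alternatives, and of these only leaving out WT P15 replicate 1 lost its P21 call (adjusted p = 0.0716).

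Against rd10 retina 3 days younger the difference was larger still, and both groups carry the mutation in this comparison. From rd10 P15 to rd10 P18, Mt2 rose by a log2 fold change of 4.64 (SE 0.21, adjusted p = 0.000194), 24.9-fold. Its adjusted p ranked 1 among the 20457 genes. Mt1 rose by 3.25 (SE 0.17, adjusted p = 0.000287), 9.52-fold, and ranked 2. Both calls were kept under all 15 alternatives.

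At the matched age of P15, the levels of both genes were lower in rd10 than in WT retina, and neither difference was called. Mt1 had a log2 fold change of -0.72 (SE 0.16, adjusted p = 0.106) and Mt2 of -1.08 (SE 0.19, adjusted p = 0.0609). Both libraries of rd10 P15 lay below both of WT P15 for each gene. For Mt2 the adjusted p was 0.0291 without the filter on low counts, 4.88e-04 with DESeq2, 0.0210 without rd10 P18 replicate 1 and 0.0218 without rd10 P18 replicate 2. In this comparison the sex of the animals and the genotype cannot be told apart.

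From P18 to P21, Mt1 had a log2 fold change of -1.30 (SE 0.15, adjusted p = 0.0663) and Mt2 of -1.41 (SE 0.18, adjusted p = 0.0665). Both P21 libraries lay below both P18 libraries for each gene, and neither was called. The call was made for both genes without rd10 P18 replicate 2, with an adjusted p of 0.00177 for Mt1 and 0.00285 for Mt2, and for Mt1 without rd10 P18 replicate 1 (adjusted p = 0.0276). It was also made for both genes by DESeq2, without the filter on low counts and with the term for the Y-linked genes.

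Within libraries of the same sex, the P18 library was again the highest. Among the 4 libraries without Y-linked counts, Mt1 stood at 32.8 and 36.7 CPM in WT P15, 199 in rd10 P18 replicate 2 and 71.2 in rd10 P21 replicate 2. In the same libraries Mt2 stood at 14.97, 16.8, 184 and 59.7 CPM. Among the 4 libraries with Y-linked counts, Mt1 stood at 21.7 and 20.5 CPM in rd10 P15, 203 in rd10 P18 replicate 1 and 92.0 in rd10 P21 replicate 1. These subsets hold 1 library of rd10 P18 and of rd10 P21 each and were not tested.

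The balance between the genes of the family moved as well. Mt2 had 0.456 and 0.458 times the CPM of Mt1 in WT P15, 0.316 and 0.401 times in rd10 P15, 0.944 and 0.927 at P18 and 0.894 and 0.838 at P21. Its share relative to Mt1 was thus higher in every P18 and P21 library than in every P15 library. Per kb of the spliced transcript of 3 exons (549 bases for Mt1 and 511 for Mt2), Mt1 was at 63.4 ± 5.06 CPM and Mt2 at 31.1 ± 2.58 CPM in WT P15 (mean ± SD, n = 2). In rd10 P18 they were at 366 ± 6.06 and 368 ± 11.0 CPM per kb, closer than their SD. The longest run of bases that a transcript of Mt1 shares exactly with a transcript of Mt2 is 20. An exon of Gm45774, on the opposite strand, overlaps Mt2, and the counting is not stated to use strand.

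**Figure D2:**
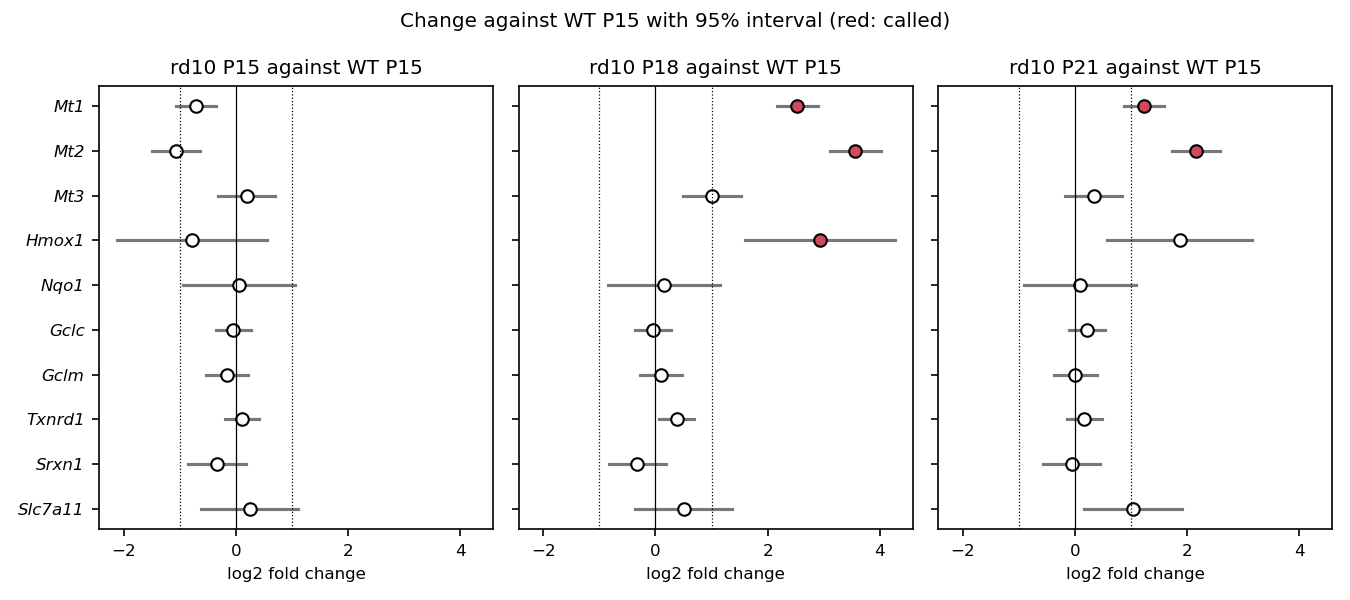
Log2 fold change of the 10 genes against WT P15 in rd10 P15, P18 and P21, with 95% intervals from the edgeR fit to all 8 libraries. Red points were called, open points were not, and dotted lines stand at a log2 fold change of 1 and of -1. Mt1 and Mt2 at P18 and P21 and Hmox1 at P18 were called, and the intervals of Gclc and Gclm crossed 0 at every age.

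Mt3 (ENSMUSG00000031760, chr8:94152607-94154146, plus strand) had 19.0 and 18.3 CPM in WT P15, 25.8 and 16.7 CPM in rd10 P15, 40.0 and 35.1 at P18 and 24.7 and 22.4 at P21. Both P18 libraries lay above the other 6, while the rd10 P15 libraries lay on either side of WT P15. The log2 fold change at P18 against WT P15 was 1.01 (SE 0.22, 95% interval 0.50 to 1.52, adjusted p = 0.0681), which was not called. It was called by DESeq2 (adjusted p = 0.00459), with library size only (0.0458), without the filter on low counts (0.0467) and without rd10 P18 replicate 2 (0.0229). At P21 the log2 fold change was 0.34 (SE 0.22, adjusted p = 0.627). Of the CPM of the 3 metallothioneins, Mt3 made up 28.4% and 25.5% in WT P15, then 47.4% and 36.8% in rd10 P15, 9.19% and 8.41% at P18 and 12.4% and 14.6% at P21.

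The metallothionein genes lie within 43.1 kb of chromosome 8 together with Mt4, which is best known from stratified epithelium and did not pass the filter on low counts. Between 200 kb before and 200 kb after the cluster, 11 other genes were tested. At P18 against WT P15, their adjusted p values ran from 0.276 for Bbs2 to 0.917 for Nudt21. Nup93 had a log2 fold change of 0.09 (SE 0.17) and Bbs2 of -0.36 (SE 0.15). Of the 10 genes, 5 lie on chromosome 8, the 3 metallothioneins, Hmox1 and Nqo1.

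Hmox1 (ENSMUSG00000005413, chr8:75093621-75100589, plus strand) encodes heme oxygenase 1, which breaks heme down to biliverdin, iron and carbon monoxide. The WT P15 libraries held 1.33 and 2.95 CPM, from 36 and 91 counts, and those of rd10 P15 held 1.53 and 0.95 CPM. The level was 14.8 and 17.9 CPM at P18, and 11.7 and 3.95 CPM at P21. Both P18 libraries lay above all others, and the 2 libraries of P21 lay far from each other. Against WT P15, Hmox1 rose by a log2 fold change of 2.93 at P18 (SE 0.58, 95% interval 1.59 to 4.27, adjusted p = 0.0492), which is 7.60-fold. At P21 it was 1.87 (SE 0.57, adjusted p = 0.230). Against rd10 P15, the P18 change was 3.71 (SE 0.61, adjusted p = 0.0485).

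Both calls of Hmox1 lay close to the threshold. At P18 against WT P15 the adjusted p was 0.289 and 0.117 when replicate 1 or 2 of WT P15 was left out, 0.0859 without either rd10 P15 library in turn and 0.0972 without rd10 P18 replicate 1. It was 0.102 with the term for the Y-linked genes and 0.0577 in a fit of only the 4 libraries compared. Against rd10 P15 the adjusted p was 0.0508 and 0.0533 when replicate 1 or 2 of WT P15 was left out, 0.220 and 0.351 when replicate 1 or 2 of rd10 P15 was left out and 0.0966 without rd10 P18 replicate 1. Over all 15 alternatives, the log2 fold change at P18 against WT P15 stayed between 2.48 and 3.62. DESeq2 called Hmox1 also at P21 (adjusted p = 0.0290), where the log2 fold change was 0.88 with replicate 1 of rd10 P21 left out and 2.56 with replicate 2 left out.

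The other 6 Nrf2 targets did not pass the test at any age. None of them was called by edgeR in any of the 5 comparisons or by DESeq2, and 1 of the 6 had an unadjusted p under 0.05 at P18 (Txnrd1) and 1 at P21 (Slc7a11) against WT P15. Their log2 fold changes at P18 against WT P15 ran from -0.32 to 0.51 with a median of 0.12. The lowest bound of their 95% intervals was -0.84 and the highest 1.37. For Gclc, Gclm, Txnrd1 and Srxn1 the upper bound at P18 was 0.27, 0.48, 0.69 and 0.19, below a doubling in each case, whereas the intervals of Nqo1 and Slc7a11 reached past 1.

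Nqo1 (chr8:107388225-107403206, minus strand), a quinone reductase and the usual readout of Nrf2, had 3.03 and 3.59 CPM in WT P15, 2.45 and 4.41 CPM in rd10 P15, 4.06 and 3.31 at P18 and 2.57 and 4.47 at P21. The libraries overlapped in every comparison. The log2 fold change at P18 against WT P15 was 0.15 (SE 0.44, adjusted p = 0.905). Its counts ran from 77 to 136 per library, and its 95% interval at P18, -0.84 to 1.15, was too wide to tell a doubling from no difference.

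Gclc (chr9:77754535-77794485, plus strand) and Gclm (chr3:122245557-122270732, plus strand) encode the catalytic and the modifier subunit of glutamate-cysteine ligase, the first step of glutathione synthesis. Gclc had 44.2 and 43.5 CPM in WT P15, 42.8 and 42.0 CPM in rd10 P15, 41.6 and 43.6 at P18 and 54.5 and 47.3 at P21. Its log2 fold change was -0.04 at P18 (SE 0.14, adjusted p = 0.917) and 0.21 at P21 (SE 0.14, adjusted p = 0.614). The P21 libraries of Gclc lay above the other 6. Gclm had 42.2 and 36.7 CPM in WT P15, 32.8 and 37.7 CPM in rd10 P15, 45.7 and 38.7 at P18 and 42.2 and 37.1 at P21, with a log2 fold change of 0.10 at P18 (SE 0.17, adjusted p = 0.817). Exons of Gm17494, on the opposite strand, and of Gm6061, on the same strand, overlap Gclm, and their reads may be shared.

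Txnrd1 (chr10:82833951-82897712, plus strand) encodes the cytosolic thioredoxin reductase. It had 48.4 and 55.4 CPM in WT P15, 57.8 and 53.9 CPM in rd10 P15, 67.3 and 67.9 at P18 and 61.4 and 55.4 at P21. The P18 libraries were the highest of the 8, at a log2 fold change of 0.38 against WT P15 (SE 0.14, adjusted p = 0.205). Srxn1 (chr2:152105516-152111376, plus strand), the sulfiredoxin that repairs oxidized peroxiredoxins, had 84.6 and 74.1 CPM in WT P15, 52.0 and 73.3 CPM in rd10 P15, 51.8 and 75.2 at P18 and 70.9 and 81.7 at P21. It lay below WT P15 on average at each age, with a log2 fold change of -0.32 at P18 (SE 0.22, adjusted p = 0.505), and libraries of 1 group differed by as much as the groups.

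Slc7a11 (chr3:49892526-50443614, minus strand) encodes the cystine carrier of system xc-, which feeds glutathione synthesis. It had 5.77 and 5.15 CPM in WT P15, 6.62 and 6.31 CPM in rd10 P15, 8.50 and 6.99 at P18 and 6.85 and 15.6 at P21. All rd10 libraries lay above WT P15. The log2 fold change was 0.51 at P18 (SE 0.38, adjusted p = 0.536) and 1.04 at P21 (SE 0.38, adjusted p = 0.333), and at P21 it was 0.34 without rd10 P21 replicate 2.

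Counted without regard to size, 6 of the 10 genes had both P18 libraries above both WT P15 libraries and 0 had both below, where 24.1% of all genes tested lay above and 1.48% were called. The median log2 fold change of the 10 genes at P18 against WT P15 was 0.44, and that of all genes was 0.01. At P21 against WT P15, 6 lay above (24.9% of all genes) and 0 below, with a median of 0.27. At P15 against WT P15, 1 lay above and 4 below (24.9% of all genes), with a median of -0.11.

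Of the genes that control both systems, few differences passed the test. Nfe2l2, which encodes Nrf2, had 27.8 and 25.8 CPM in WT P15 and 39.5 and 39.4 at P18, a log2 fold change of 0.56 (SE 0.15, adjusted p = 0.110). Keap1 had a log2 fold change of 0.02 at P18 (SE 0.14, adjusted p = 0.962) and Bach1 of -0.03 (SE 0.17, adjusted p = 0.960). Mtf1, the metal-sensing factor, had 54.1 and 51.0 CPM in WT P15 and 31.0 and 40.2 at P18, a log2 fold change of -0.56 (SE 0.45, adjusted p = 0.571). The small Maf partner Mafk was the only called gene of the 9 that control Nrf2. It had 4.58 and 6.09 CPM in WT P15 and 15.7 and 12.2 at P18, a log2 fold change of 1.38 (SE 0.27, adjusted p = 0.0452). This call lay close to the threshold of 0.05. Several alternatives called fewer related genes at P18, and others called more, as given below. Maff, another small Maf gene, had the highest value of that list, 1.91 (SE 0.62, adjusted p = 0.167), and Cul3, the ubiquitin ligase scaffold that acts with Keap1, the lowest, -0.23 (SE 0.12, adjusted p = 0.386).

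Genes with related functions were read from 8 lists of 73 genes in all, none of them among the 10, of which 70 were tested. At P18 against WT P15, 2 of the 70 were called, both higher (Mafk and Cp), beside 1.48% of all genes. At P21 against WT P15 and at P18 against rd10 P15, 1 was called, Cp in each case. In rd10 P15 against WT P15, edgeR and DESeq2 called 0 of the 70, with 8 at an unadjusted p under 0.05 (12.3% of all genes). At P18 against WT P15, the log2 fold change was positive for 54 of the 70, with a median of 0.30, 36 had both P18 libraries above both WT P15 libraries (24.1% of all genes) and 25 had an unadjusted p under 0.05 (17.4% of all genes). DESeq2 called 4 of the 70 at P18, where it called 4.74% of all genes. The count of 2 was 8 without rd10 P18 replicate 2, where 5.70% of all genes were called, and 1 with each of the other 7 libraries left out in turn.

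Cp encodes ceruloplasmin, a copper-carrying ferroxidase that lets iron leave the cell. It had 116 and 125 CPM in WT P15, 115 and 113 CPM in rd10 P15, 516 and 551 at P18 and 354 and 235 at P21. The P18 and P21 libraries lay above all P15 libraries. Exons of other genes on the opposite strand overlap Cp, Mafk, Mtf1 and Keap1, and how far they share reads is not known. The log2 fold change against WT P15 was 2.15 at P18 (SE 0.20, adjusted p = 0.00381) and 1.29 at P21 (SE 0.19, adjusted p = 0.0434). From rd10 P15 to P18 it was 2.23 (adjusted p = 0.00347). The call at P21 was not made without either WT P15 library, either rd10 P15 library or rd10 P21 replicate 1, each of which left 0 of the 70 genes called, and the call from rd10 P15 to P18 was not made without either rd10 P15 library. In the same list of heme and iron genes, the heme carrier Hpx had the lowest value, -1.11 (SE 1.22, adjusted p = 0.692), from levels under 1.5 CPM in every library.

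Among the 16 glutathione enzymes, 15 were positive at P18 against WT P15 with a median of 0.50. The highest was that of Mgst1, a membrane-bound glutathione transferase, at 1.83 (SE 0.40, adjusted p = 0.0665), and the lowest that of Gstp1, at -0.15 (SE 0.26, adjusted p = 0.814). The summed level of this list was 718 and 719 CPM in WT P15 but 1112 in replicate 1 and 767 in replicate 2 of P18, so that most of the difference in the sum came from replicate 1. In replicate 1 all 16 genes lay above the WT P15 mean, and in replicate 2 this held for 12. Among the 12 thioredoxin and peroxiredoxin genes, 11 were positive with a median of 0.40. Their sum was 626 and 742 CPM in WT P15, 1017 in replicate 1 and 761 in replicate 2 of P18, the latter close to the higher WT P15 library. Here 11 genes lay above the WT P15 mean in replicate 1 and 9 in replicate 2. They ran from 1.00 for the endoplasmic peroxiredoxin Prdx4 (SE 0.32, adjusted p = 0.157) to -0.47 for the mitochondrial thioredoxin Txn2 (SE 0.24, adjusted p = 0.349). Scaling to library size only put the median of all genes at 0.13 in this comparison, so that values near 0.1 depend on the scaling.

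The enzymes that supply NADPH had a median of 0.04, from 0.28 for Taldo1 (SE 0.17, adjusted p = 0.438) to -0.46 for Me1 (SE 0.12, adjusted p = 0.114). The 7 tested genes of zinc and metal handling had a median of -0.09. They ran from 0.69 for the exporter Slc30a10 (SE 0.46, adjusted p = 0.489) to -0.76 for the copper pump Atp7a (SE 0.45, adjusted p = 0.438). Slc30a1, a zinc exporter and a known target of MTF1, stood at 52.5 and 44.7 CPM in WT P15 and at 45.7 and 45.9 CPM in P18, and it was chosen for mention after its values were seen. Sod3, the extracellular superoxide dismutase, had 1.20 (SE 0.59, adjusted p = 0.348) and Sod2 had -0.05 (SE 0.14, adjusted p = 0.895). Of the remaining genes linked to Nrf2, Osgin1 had the highest value with 0 and 0.78 CPM in WT P15 and 4.92 and 2.77 CPM at P18 (adjusted p = 0.234), and the exporter Abcc1 the lowest with -0.30 (SE 0.23, adjusted p = 0.542).

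**Figure D3:**
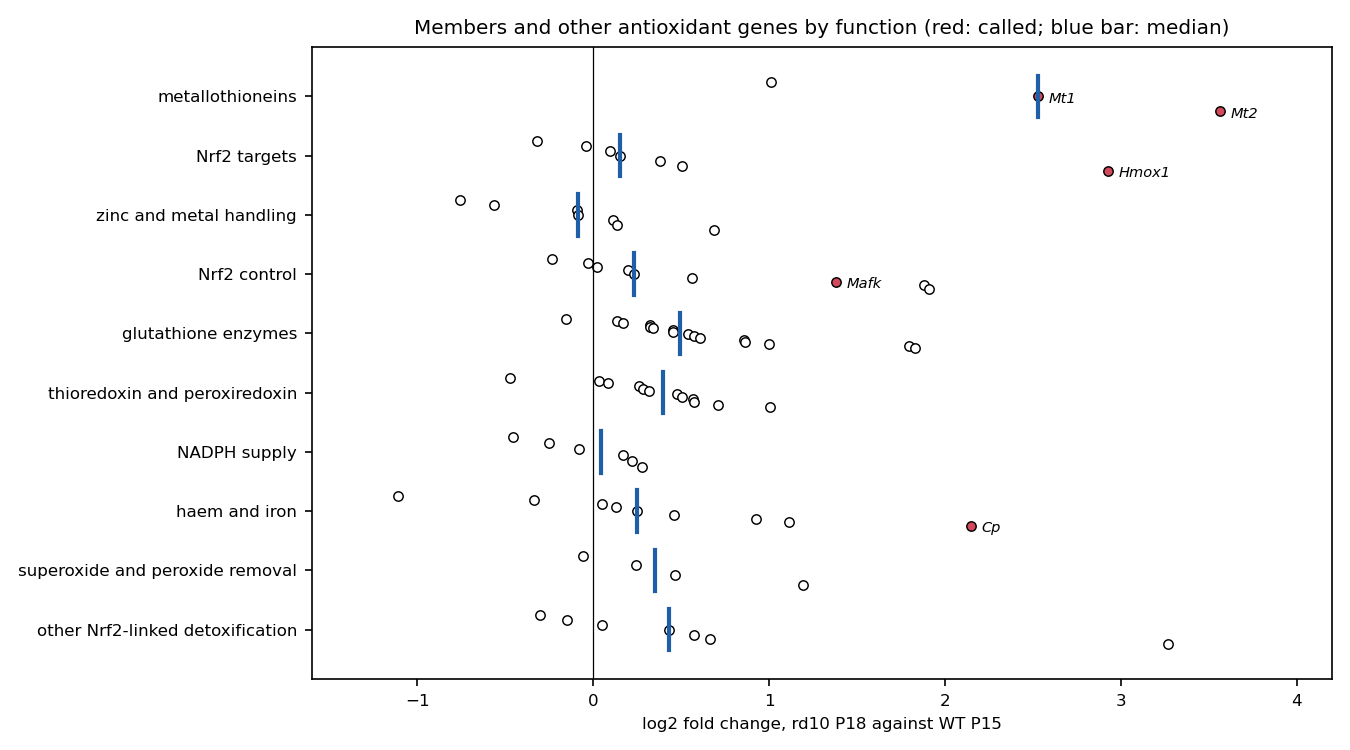
Log2 fold change at rd10 P18 against WT P15 for the 3 metallothioneins, the 7 Nrf2 targets and the 70 tested genes of 8 related lists. Each circle is 1 gene, red circles were called and named, and the blue bar is the median of the list. The called genes were Mt1, Mt2, Hmox1, Mafk and Cp, and the medians ran from -0.09 for zinc and metal handling to 2.53 for the metallothioneins.

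Summed markers of reactive Muller glia, of microglia and of monocytes were higher in rd10 P18 than in P15 retina, as were Mt1, Mt2 and Hmox1. The sum of general Muller glia markers was not. The list of reactive Muller glia held 8 genes (Gfap, Lcn2, Serpina3n, Socs3, Edn2, Fgf2, Bcl3 and Vim). In whole retina, the cells that expressed them were not identified, so that the list name is not a measured source. Of these 8 genes, 7 were called higher than WT P15 at P18 and 4 at P21. The shares of all genes called were 1.48% and 0.386%. The summed level of the 8 lay between 191 and 194 CPM in WT P15 and 205 and 258 CPM in rd10 P15. Single genes mostly went the other way at P15. Against WT P15, 6 of the 8 had a negative log2 fold change there, with a median of -0.70. Of the 8, 1 was called there, and it was lower (0.230% of all genes called). Vim was higher, with 117 and 107 CPM in WT P15 and 212 and 157 CPM in rd10 P15. The sum of the 8 lay between 1289 and 1452 CPM at P18 and 572 and 617 CPM at P21. None of the 8 was at 0 in any library. At P18, 7 of the 8 had both libraries above both of WT P15. Fgf2 overlapped, with 146 and 12.9 CPM at P18 beside 29.5 and 30.8 in WT P15, and had 135 and 140 CPM at P21. The summed level of 8 general Muller glia markers was lower in both P18 libraries (3958 and 4030 CPM) than in WT P15 (4558 and 5044 CPM). It was 5478 and 5701 CPM at P21. Single markers differed in direction at P18 against WT P15, with 4 positive, 4 negative and a median log2 fold change of 0.05. Glul, the largest part of the sum, had 2499 and 2736 CPM in WT P15 and 1814 and 1847 at P18. Sox9 had 14.0 and 15.5 CPM in WT P15 and 27.0 and 26.6 at P18.

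Of 8 microglia markers, 3 were called higher than WT P15 at P18 (1.48% of all genes called) and 2 at P21 (0.386%). The sum of the 8 lay between 70.0 and 76.3 CPM in WT P15 and 94.3 and 97.3 CPM in rd10 P15. It lay between 222 and 224 CPM at P18 and 175 and 325 CPM at P21. Aif1 was at 0 in 1 library of WT P15 and 1 of rd10 P15. From rd10 P15 to P18, 7 of the 8 rose and P2ry12 fell, from 7.86 and 8.07 CPM to 4.41 and 3.75 CPM. The sum of 6 genes of monocytes and macrophages was 5.40 to 8.09 CPM in WT P15, 7.72 to 9.45 in rd10 P15, 58.4 to 65.5 at P18 and 19.3 to 73.0 at P21, with 1 of 6 called at P18. Of these, Lyz2 had the highest level at P18, with 33.8 and 39.6 CPM. Plac8 was at 0 in all 4 P15 libraries and Ly6c2 in both rd10 P15 libraries. Plac8 and Ly6c2 were also at 0 in rd10 P21 replicate 2. At P21, replicate 1 held more than replicate 2 of the microglia sum, of the monocyte sum and of Hmox1. The same held for Mt1, Mt2 and the reactive Muller glia sum. At P18, the monocyte sum was higher in replicate 1 and Hmox1 was higher in replicate 2. The rod sum was 37100 to 46335 CPM in WT P15, 27511 to 28999 in rd10 P15, 24283 to 24771 at P18 and 17724 to 23058 at P21, and was thus already lower in rd10 P15, where Mt1 and Mt2 were at their lowest.

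Markers of the retinal pigment epithelium, the layer that adjoins the photoreceptors, moved in the opposite direction to Mt1 and Mt2. In WT P15 the sum of 6 of them stood at 33.1 and 105 CPM, against 153 and 181 CPM in the rd10 libraries of the same age, 29.8 and 17.3 at P18 and 26.2 and 28.2 at P21, and the rd10 P15 libraries lay above all others. Their median log2 fold change from rd10 P15 to rd10 P18 was -2.76, with 0 of the 6 called and 5 at an unadjusted p under 0.05 (12.9% of all genes). The sum of 6 lens markers was 4.41 CPM in rd10 P18 replicate 1 and at most 0.846 CPM in every other library. The part of these cell types in the rise of Mt1, Mt2 and Hmox1 was not tested.

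**Figure D4:**
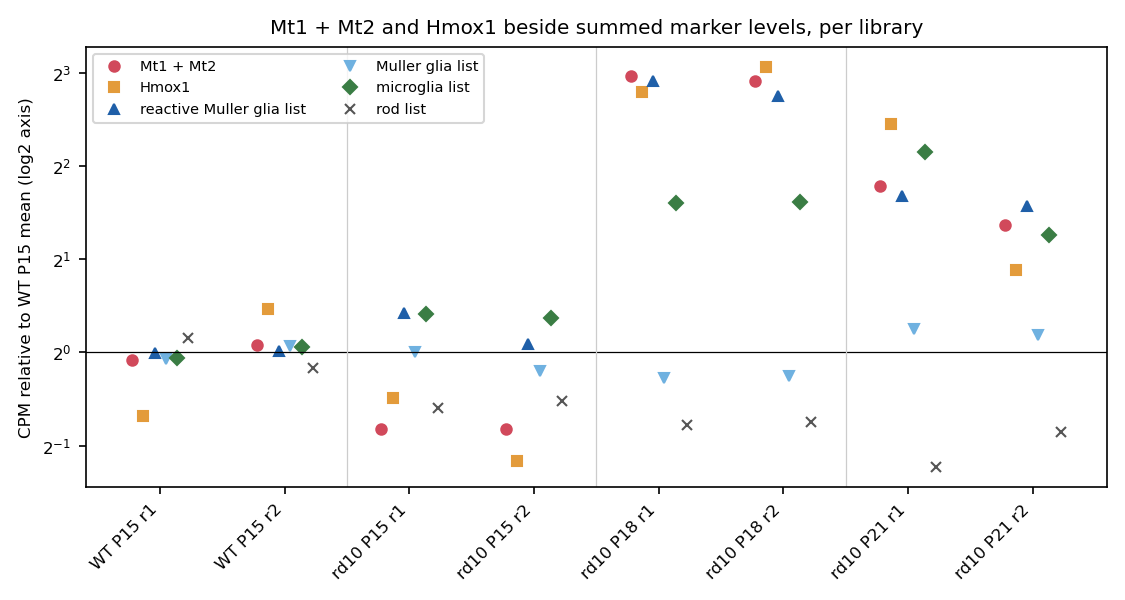
Level of Mt1 + Mt2, of Hmox1 and of 4 summed marker lists in each library, divided by the mean of the 2 WT P15 libraries, on a log2 axis. In rd10 P18 replicates 1 and 2, the sum of Mt1 and Mt2 was 395 and 383 CPM. That of the reactive Muller glia list was 1452 and 1289 CPM. Both sums stood about equally far above WT P15, with the microglia list below them and the rod list under 1.

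The genes whose pattern over the 8 libraries was most like that of Mt1 were Socs3 (Pearson r = 0.994), Mt2 (0.993) and Cebpd (0.993), among 16211 genes with a mean of at least 1 CPM. For Mt2 they were Mt1 (0.993), Cebpd (0.993) and Aldh1l1 (0.986). Socs3, which is also in the list of reactive Muller glia, is a feedback inhibitor of cytokine signaling, Cebpd a transcription factor of the acute phase, and Aldh1l1 a folate enzyme used as a marker of astrocytes. For Hmox1 they were Adamtsl4 (0.989), Efhd2 (0.988) and Parp3 (0.987), and for Mt3 Crybb3 (0.982), Nfil3 (0.979) and Clic1 (0.972). These correlations describe 8 libraries of 4 groups, which share group, age and depth, and carry no test.

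Among the 10 genes themselves, the correlation over the 8 libraries was 0.993 for Mt1 and Mt2, 0.963 for Mt1 and Hmox1 and 0.956 for Mt2 and Hmox1. Mt3 was at 0.836 with Mt1 and at 0.886 with Txnrd1. Nqo1 was at 0.14 with Mt1 and at -0.03 with Hmox1, Gclc at 0.32 with Hmox1, and Srxn1 at -0.18 with Hmox1. For the other 6 targets the most similar genes were Gm14827 for Nqo1 (0.926), Nup210l for Gclc (0.950), Polm for Gclm (0.957), an identifier without a symbol for Txnrd1 (0.978), Deptor for Srxn1 (0.975) and Rnpepl1 for Slc7a11 (0.953).

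Levels per kb in WT P15 depended for the metallothioneins on the transcript taken. Per kb of the spliced transcript of 3 exons, Mt1 stood at 63.4 ± 5.06 CPM, Mt3 at 34.8 ± 0.887 and Mt2 at 31.1 ± 2.58 (mean ± SD, n = 2 libraries). Over all annotated exons, which for Mt1 cover 1246 bases with its introns, the values were 27.9 ± 2.23 for Mt1, 17.5 ± 0.446 for Mt3 and 27.0 ± 2.25 for Mt2. The order of the 3 genes is thus not fixed by these counts. At rd10 P18 the spliced length gave 366 ± 6.06 for Mt1, 368 ± 11.0 for Mt2 and 70.1 ± 6.43 for Mt3, and all exons gave 161 ± 2.67, 320 ± 9.57 and 35.2 ± 3.23.

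The Nrf2 targets, per kb of all annotated exons in WT P15, were in the order Srxn1 (28.1 ± 2.63 CPM per kb), Gclc (11.7 ± 0.136), Txnrd1 (7.32 ± 0.700), Gclm (6.27 ± 0.613), Nqo1 (2.13 ± 0.256), Hmox1 (1.22 ± 0.652) and Slc7a11 (0.392 ± 0.0310). At rd10 P18 Hmox1 (9.33 ± 1.23) lay beside Txnrd1 (9.54 ± 0.0630), closer than the SD of Hmox1. Lengths of the transcripts in use were not measured, so that this order is approximate.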

How the data were processed

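Whole-retina RNA-seq libraries of 4 groups were analysed, with 2 libraries per group. The authors deposited raw read counts per Ensembl gene, whole numbers without normalization, from poly(A) RNA with random-primed cDNA sequenced on an Illumina NovaSeq instrument. HISAT2 is named in the submitters' processing notes. How reads were counted, on which build and with which annotation, is not given in the sources used here. All 8 columns were used. GENCODE M21 (GRCm38) supplied symbols for 52029 of 57010 identifiers, positions and exon lengths, and the gene models behind the counts may be others. Promoter windows are those of the RefSeq table (GRCm38.p6).

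The filter was filterByExpr over the 4 groups (at least 10 counts, at least 15 in total). Libraries were scaled by TMM and fitted with edgeR 4.0.16 (limma 3.58.1, R 4.3.3) by the quasi-likelihood method with robust=TRUE. All 8 libraries entered with 4 residual degrees of freedom, and p-values were adjusted by Benjamini-Hochberg over 20457 genes. The thresholds are those of the study, which used DESeq2. A standard error is the log2 fold change divided by the square root of F, and correlations used log2 CPM with a prior count of 2. Replicate numbers did not pair the retinas (correlations of deviations from -0.06 to 0.11). The 2 libraries of a group differed by 24.5 to 103 in chi-square per gene, where counting noise gives about 1. The p-values thus measure the spread between single retinas, which in rd10 P18 and rd10 P21 includes a difference of sex. Standard errors and intervals rest on this spread, and counting error alone is smaller.

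The 10 genes and all lists were chosen with earlier results of these data known. The text names the 10 genes with each library's value, every related gene called in any comparison, the gene with the highest and the gene with the lowest P18 change of each list, Nfe2l2, Keap1, Bach1 and Mtf1, and the 3 genes most correlated with a member, of which the text gives the first for 6 members. Further genes in the text were picked with their values known. Alternatives were DESeq2 1.42.0, no filter on low counts, scaling by RLE or by library size alone, a replicate block, a term for the Y-linked genes, only the 4 libraries compared, no fold threshold and each library left out in turn, and, added after the data were seen, the spliced length of each metallothionein in levels per kb. Plots were made in Python 3.11.15 with matplotlib 3.10.9.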

Additional observations from a re-analysis of the deposited data

How the results depend on the processing

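Mt1 and Mt2 at rd10 P18, against WT P15 and against rd10 P15, kept direction and call under all 15 alternatives, and none of the 6 Nrf2 targets besides Hmox1 was called under any of them. With replicate number as a block, which does not stand for a pairing of the retinas, the count of the 10 genes called at P21 against WT P15 was 1 and that of the 70 related genes was 1 at P18 and 0 at P21. Under the block the adjusted p was 0.0835 for Hmox1 at P18 against WT P15, 0.0741 against rd10 P15 and 0.0579 for Mt1 at P21. With the term for the Y-linked genes the same 3 counts were 1, 1 and 0, and 2 of the 10 were called between P21 and P18. DESeq2 called 1 of the 10 at P15 against WT P15 and 2 between P21 and P18. Of the 70 related genes it called 4 at P18, 4 at P21 and 5 at P18 against rd10 P15. Its shares of all genes against WT P15 were 2.13% at P15, 4.74% at P18 and 2.76% at P21. They were 3.0% at P18 against rd10 P15 and 0.6% between P21 and P18. Without the filter on low counts, 1 of the 10 was called at P15 (0.49% of all genes) and 2 between P21 and P18 (0.0646%). In fits of only the 4 libraries compared, 0 of the 70 were called at P21 against WT P15, beside 0.68% of all genes. Over all genes, 303 were called by edgeR at P18 against WT P15, 957 by DESeq2 and 39 to 1250 with a library left out. The share of higher calls there ran from 38.6% without rd10 P18 replicate 2 to 84.6% without WT P15 replicate 1. Library size only raised the median of all genes at P18 from 0.01 to 0.13 and at P21 from 0.00 to 0.11, and the share of higher calls at P21 from 63.3% to 73.6%.

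With each library left out in turn, the number of the 10 genes called against WT P15 was 0 to 1 at P15, 2 to 4 at P18 and 0 to 2 at P21, 2 to 3 at P18 against rd10 P15 and 0 to 2 at P21 against P18. For the 70 related genes it was 1 to 8 at P18, 0 to 2 at P21, 0 to 5 at P18 against rd10 P15 and 0 to 2 at P21 against P18. The shares of all genes called also varied widely among the fits with a library left out, as given above for P18 and P21 against WT P15. The log2 fold changes that changed sign were all uncalled. With the term for the Y-linked genes, Srxn1 against WT P15 was at 0.0303 at P15 and 0.13 at P21, and it was at -0.19 at P18 against rd10 P15, Gclm against WT P15 at -0.0143 at P18 and -0.10 at P21, and Nqo1 at -0.0039 at P18 against rd10 P15. With library size only, against WT P15 Gclc was at 0.0801 at P18 and Srxn1 at 0.0562 at P21. With a library left out, Mt3 at P15 ranged from -0.16 to 0.47 and Nqo1 from -0.43 to 0.41 against WT P15. At P18 against WT P15 Nqo1 ranged from -0.0023 to 0.29 and Gclm from -0.0275 to 0.21. At P21 against WT P15 Nqo1 ranged from -0.36 to 0.43, Gclm from -0.0902 to 0.12 and Srxn1 from -0.15 to 0.0559. At P18 against rd10 P15 Nqo1 ranged from -0.25 to 0.59, Gclc from -0.0285 to 0.0418 and Srxn1 from -0.27 to 0.29. At P21 against P18 Nqo1 ranged from -0.52 to 0.28, Gclm from -0.21 to 0.0344 and Slc7a11 from -0.18 to 1.00. The causes of these changes were not tested. With 2 retinas per group the spread of a lone library is assumed to equal that of the other groups when its partner is left out, and genes near 1 CPM such as Hmox1 in P15 retina rest on fewer than 100 counts.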
